A study of Mus musculus with 6 samples.

Results

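Solute carriers are the membrane proteins that move sugars, amino acids, ions, nucleosides, vitamins and metabolites across the cell surface and the membranes of organelles, and their genes carry the symbol Slc with a family number. All genes of the count table whose symbol starts with Slc and a digit were taken, whatever their values, which gave 236 of 13709 entries with 235 different symbols. The RNA came from CD4+YFP+CD25+ Tregs, the Foxp3-expressing T cells that restrain other T cells, of 3 WT and 3 KO samples. WT mice were Foxp3Cre and KO mice were Foxp3Cre Zfp335fl/fl, all on the C57BL/6 background and, by the study's methods, 2 weeks old. Mice of both genotypes carried the YFP-Cre allele at the Foxp3 locus, so that Cre and the sorting marker were made only in cells that use the Foxp3 promoter, and the floxed Zfp335 gene, which encodes a zinc finger transcription factor, could be deleted there in KO mice. The labels named both lymph nodes and spleen as the tissue, and whether a sample was 1 mouse or a pool was not stated, so p-values below measure the spread between these samples, which may be partly technical.

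Activated T cells place more glucose, lactate and amino acid carriers in their membrane than resting cells do, to supply growth and division. Slc2a1 (GLUT1) brings in glucose, Slc16a1 and Slc16a3 (MCT1 and MCT4) pass lactate, and Slc7a5 with its partner Slc3a2 (LAT1 with CD98) exchanges large neutral amino acids such as leucine. The Slc25 family sits in the inner mitochondrial membrane, where it exchanges nucleotides, phosphate, cofactors and metabolites with the cytosol.

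The start regions of 5 carriers of fuel and vitamins, chosen after their values were seen, are shown. Their mRNA separated the genotypes in every sample, Slc2a1, Slc16a1 and Slc16a3 upward in KO and Slc38a9 and Slc19a1 downward. Such separation was common, at 54.2% of the Slc genes and 53.8% of all genes, and other separated carriers are not shown. Each is the 250 bases before a start site given by RefSeq, assembly GRCm38.p6, the assembly that mm10 denotes, in the direction of transcription. For Slc16a3, Slc38a9 and Slc19a1 this site lies inside the gene span, so it is not the outermost start. A further window of Slc19a1 is not shown. The bases right after the Slc16a1 window were in no GENCODE M21 transcript of that gene. Capitals mark ACGTG on either strand, the core of the hypoxia response element, together with CACGTG, the E-box bound by Myc and related factors, which contains ACGTG on both strands.
Slc2a1, chr4:119108495-119108744, plus strand: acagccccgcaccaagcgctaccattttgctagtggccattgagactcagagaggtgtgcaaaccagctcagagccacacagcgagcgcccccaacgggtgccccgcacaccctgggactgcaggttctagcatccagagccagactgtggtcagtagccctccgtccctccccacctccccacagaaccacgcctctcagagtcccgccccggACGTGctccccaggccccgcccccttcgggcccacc
Slc16a1, chr3:104638414-104638663, plus strand: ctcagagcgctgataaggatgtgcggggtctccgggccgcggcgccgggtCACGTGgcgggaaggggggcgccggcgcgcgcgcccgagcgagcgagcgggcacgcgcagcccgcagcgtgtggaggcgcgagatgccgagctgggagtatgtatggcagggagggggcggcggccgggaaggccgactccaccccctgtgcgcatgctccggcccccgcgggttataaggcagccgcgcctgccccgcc
Slc16a3, chr11:120948817-120949066, plus strand: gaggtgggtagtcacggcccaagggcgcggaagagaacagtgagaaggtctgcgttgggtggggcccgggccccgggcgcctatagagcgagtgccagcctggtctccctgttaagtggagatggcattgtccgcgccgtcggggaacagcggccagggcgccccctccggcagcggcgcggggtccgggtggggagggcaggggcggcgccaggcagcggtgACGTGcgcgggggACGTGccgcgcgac
Slc38a9, chr13:112660516-112660765, plus strand: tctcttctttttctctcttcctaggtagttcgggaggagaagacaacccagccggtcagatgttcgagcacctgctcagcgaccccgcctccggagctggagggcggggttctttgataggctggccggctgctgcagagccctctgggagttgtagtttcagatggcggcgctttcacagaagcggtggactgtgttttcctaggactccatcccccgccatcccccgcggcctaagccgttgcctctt
Slc19a1, chr10:77032489-77032738, plus strand: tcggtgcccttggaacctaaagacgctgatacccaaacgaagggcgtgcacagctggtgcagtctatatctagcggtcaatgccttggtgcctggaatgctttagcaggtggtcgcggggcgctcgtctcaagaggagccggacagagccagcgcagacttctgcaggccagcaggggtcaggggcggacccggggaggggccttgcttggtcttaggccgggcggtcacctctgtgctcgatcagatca

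The 5 windows had 60% to 76.4% G and C, beside a median of 52% over the first windows of all genes. The Slc2a1 window held ACGTG once, the Slc16a3 window held it 2 times, the Slc16a1 window held the single CACGTG, and the windows of Slc38a9 and Slc19a1 held neither. RefSeq windows were given for 176 of the 235 Slc symbols. ACGTG was present in 16.6% of the first windows of all 27025 genes with one, in 21.3% of those of the tested genes, and in 24.4% of those of the Slc genes, which is 43 of 176. It was present in 9 of 21 windows of Slc genes called higher in KO (42.9%) and in 8 of 42 windows of those called lower (19%). CACGTG was present in 6.05% of all genes' first windows, 8.11% of those of the tested genes, 10.8% of those of the Slc genes, 14.3% of the Slc genes called higher and 11.9% of those called lower. TGATGNAA, part of the element bound by ATF4, was present in 3.53% of all first windows, in 2.3% of those of the tested genes, in 3.98% of the Slc windows, in none of the 21 called higher and in 3 of the 42 called lower. Both strands were searched for each motif. These shares describe letters in short windows, and no test was made of them. Shares over all genes called higher or lower were not counted, so whether the Slc shares are particular to carriers cannot be told.

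The libraries held 32032631 to 40728419 counts, and 3 counts, taken as the limit of detection, came to 0.0747 to 0.0913 CPM, in which each count is divided by the size of its library after TMM scaling. Zfp335 fell from 99.4 ± 4.50 CPM in WT to 38.3 ± 1.66 CPM in KO (SD, n = 3 each), which is 38.6% of WT. Exons of Pcif1 on the opposite strand cover 23.3% of the Zfp335 exons. Since strand was not stated for the counting, the share that remained in KO is uncertain. No pair of samples agreed within sampling noise. WT replicate 3 stood apart from WT replicates 1 and 2 on the second principal component, which held 18.4% of the variance, and results that rest on it are given with and without it. The Treg markers Foxp3, Il2ra, Ctla4, Ikzf2, Cd4 and Cd3e were present in every sample, with Foxp3 and Ikzf2 called lower in KO, and without WT replicate 3 Foxp3 lost its call (log2 -0.88 with it, -0.57 without). All 12 cell cycle markers were higher in KO, with a summed level of 771 to 1488 CPM in WT, lowest in WT replicate 3, and 4125 to 4296 CPM in KO. Summed myeloid markers were at 41.1 to 53.3 CPM in WT and 73.2 to 82.9 CPM in KO, with 3 of the 4 in the table called higher and Cd14, Mpo and Elane not in it. Without WT replicate 3 the myeloid marker Lyz2 lost its call. Summed NK cell markers were at 1.87 to 2.64 CPM in WT and 3.80 to 5.99 CPM in KO (2 of 3 higher), B cell markers at 17.99 to 20.1 and 12.1 to 12.6 CPM (Cd79b lower, the other 4 not called), and CD8 T cell markers at 9.32 to 13.2 and 12.02 to 12.7 CPM (Cd8a higher). Erythroid markers were at 23.3 to 101 CPM in WT and 43.2 to 49.8 CPM in KO, with none of the 5 in the table called, and Hbb-bs, Hba-a1 and Hba-a2 called lower without WT replicate 3. The part of these genes in the carrier results was not tested, and in bulk RNA fewer cells of a type and less RNA per cell cannot be told apart.

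To compare carrier expression with and without Zfp335, all genes were fitted together with edgeR, and a gene was called when it changed by more than 1.5-fold with p under 0.05 and adjusted p under 0.1, the cutoffs of the study. All 236 Slc entries passed the low-count filter. In KO, 29 rose and 52 fell, and 155 did not pass. That is 34.3% of the Slc genes called, against 24.4% of the 13594 genes tested. The Slc genes called higher made up 12.3% against 11.9% of all genes, and those called lower made up 22.0% against 12.5%. The median log2 fold change (KO over WT) was -0.15 for the Slc genes and -0.04 for all genes, and 96 Slc genes had a positive and 140 a negative value. KO and WT values did not overlap for 128 Slc genes (54.2%), beside 53.8% of all genes. Of the 168 Slc genes that averaged 5 CPM or more in a genotype, 21 were called higher and 41 lower. Of all 10125 genes at that level, 1196 were called higher and 1291 lower. The gap depended on the call rule, since 39% of the Slc genes and 38.6% of all genes passed an adjusted p under 0.05 alone, and 13.6% and 12.4% passed a test against 1.5-fold itself (glmTreat). No test was made of the difference between the Slc genes and the rest. Summed over all of them, Slc mRNA was 9586 ± 471 CPM in WT against 8893 ± 37.3 CPM in KO (SD, n = 3 each).

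**Figure D1:**
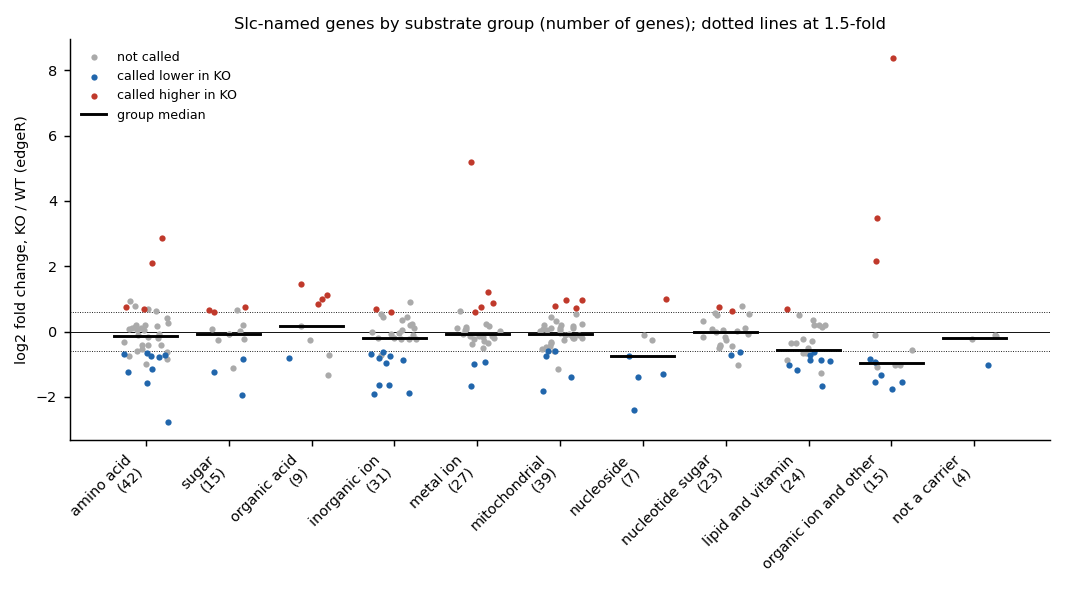
Each point is 1 of the 236 Slc entries, placed by its substrate group (x axis, number of entries in brackets) and its log2 fold change of KO over WT (y axis), red when called higher, blue when called lower and grey when not called, with a bar at the group median and dotted lines at 1.5-fold. Most points lie near 0, the group medians lie between -0.96 and 0.17, and the 3 highest points are genes under 5 CPM in every sample.

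The groups were formed from the family numbers. Of the 42 amino acid and peptide carriers, 4 rose and 9 fell (median -0.13), and of the 15 sugar carriers 3 rose and 3 fell (median -0.08). Of the 31 carriers of inorganic ions 2 rose and 10 fell (median -0.19), and of the 27 metal ion carriers 5 rose and 3 fell (median -0.07). Of the 39 mitochondrial Slc25 carriers 4 rose and 5 fell (median -0.07). The share called was 31.0% of the amino acid, 40% of the sugar, 38.7% of the inorganic ion, 29.6% of the metal ion and 23.1% of the mitochondrial carriers, the last near the 24.4% of all genes. The monocarboxylate carriers of family Slc16 had 4 of 9 called higher and 1 lower. The 7 nucleoside carriers had 1 called higher and 4 lower (median -0.73), the 24 carriers of lipids and vitamins 1 and 8 (median -0.56), the 15 carriers of organic ions and other substrates 3 and 6 (median -0.96), and the 23 nucleotide sugar carriers 2 and 2 (median 0.00). None of the 3 higher calls among the carriers of organic ions and other substrates averaged 5 CPM in a genotype. The groups are small, and the differences between them were not tested.

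**Figure D2:**
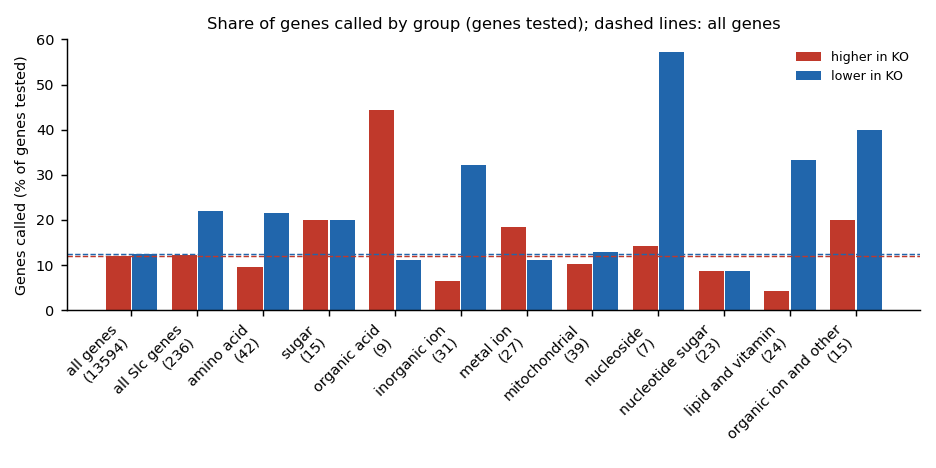
Bars give the percentage of tested genes called higher in KO (red) and lower in KO (blue) for all genes, all Slc genes and each substrate group, with the number of genes tested in brackets, and dashed lines mark the 11.9% and 12.5% of all genes. The bars of the mitochondrial carriers stand close to the lines. The tallest blue bars are those of the nucleoside (57.1%), organic ion and other (40%), lipid and vitamin (33.3%) and inorganic ion carriers (32.3%). The tallest red bar is that of the organic acid carriers at 44.4%, which is 4 of 9 genes.

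Of the sugar carriers, the glucose importer Slc2a1 rose in KO and Slc2a3, the other main one of T cells, did not pass the test. Slc2a1 has the RefSeq span chr4:119108745-119137330 (GRCm38). It was at 46.1, 49.1 and 47.4 CPM in WT replicates 1 to 3 and at 76.1, 75.1 and 75.0 CPM in KO replicates 1 to 3. The groups were far apart and each was tight, and the rise was 1.59-fold (log2 0.67, SE 0.07, adjusted p = 0.000292, edgeR). Slc2a3 (GLUT3) was at 86.2, 76.7 and 115 CPM in WT and 112, 102 and 108 CPM in KO. WT replicate 3 was its highest sample, the groups overlapped, and it was not called (log2 0.21, SE 0.14, adjusted p = 0.279). Without WT replicate 3 the Slc2a3 difference was 0.39 with adjusted p = 0.000335, still under 1.5-fold. Slc2a6 (2.66, 2.80 and 4.99 CPM in WT against 6.08, 5.15 and 6.21 CPM in KO) and Slc2a8 (10.2, 7.15 and 6.61 CPM in WT against 10.3, 13.6 and 12.8 CPM in KO), both carriers of intracellular membranes, were also called higher. Their margins were narrow, with the lowest KO sample just above the highest WT sample. Without 1 library at a time, Slc2a6 lost its call in every case but that without WT replicate 3, with adjusted p up to 0.186, and Slc2a8 lost it without WT replicate 2, WT replicate 3, KO replicate 2 or KO replicate 3, with log2 values of 0.49 to 0.58.

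Of the 3 sugar carriers called lower, none was of family Slc2. Slc50a1 (SWEET1), a sugar carrier of the Golgi and plasma membrane, was at 75.8, 80.3 and 76.0 CPM in WT and 42.1, 44.5 and 42.9 CPM in KO, a fall of 1.79-fold with wide separation (log2 -0.84, SE 0.07, adjusted p = 0.000125). Slc5a3, the sodium-coupled importer of myo-inositol, was at 24.6, 25.3 and 33.8 CPM in WT and 12.5, 11.2 and 12.1 CPM in KO (log2 -1.22). The 4 measured members of family Slc37, which carry sugar phosphates into the endoplasmic reticulum, were not called and lay between -0.21 and 0.08 on the log2 scale.

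Both lactate carriers known from activated T cells rose. Slc16a1 (MCT1, chr3:104638664-104658462) was at 40.3, 38.2 and 33.0 CPM in WT and 65.9, 68.9 and 65.0 CPM in KO (log2 0.84, SE 0.09, adjusted p = 0.000441). Slc16a3 (MCT4, chr11:120948484-120959000) was at 24.6, 25.1 and 19.5 CPM in WT and 49.7, 49.3 and 51.7 CPM in KO (log2 1.12, SE 0.11, adjusted p = 0.000292). Neither gene had overlapping groups, and Slc16a3 rose by 2.18-fold. Basigin and embigin are membrane chaperones of carriers of family Slc16. Emb was called higher (108, 115 and 159 CPM in WT against 213, 204 and 207 CPM in KO, log2 0.71), and Bsg was higher in each KO sample but below the fold cutoff (117, 128 and 112 CPM in WT against 145, 156 and 154 CPM in KO, log2 0.35, adjusted p = 0.00748). Slc16a10, which carries aromatic amino acids, went the other way, from 11.1, 7.22 and 6.67 CPM in WT to 4.74, 4.43 and 5.28 CPM in KO (log2 -0.79, adjusted p = 0.0283), and without WT replicate 1 it lost its call at -0.53. The other 2 higher calls of the family were under 3 CPM in every sample.

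**Figure D3:**
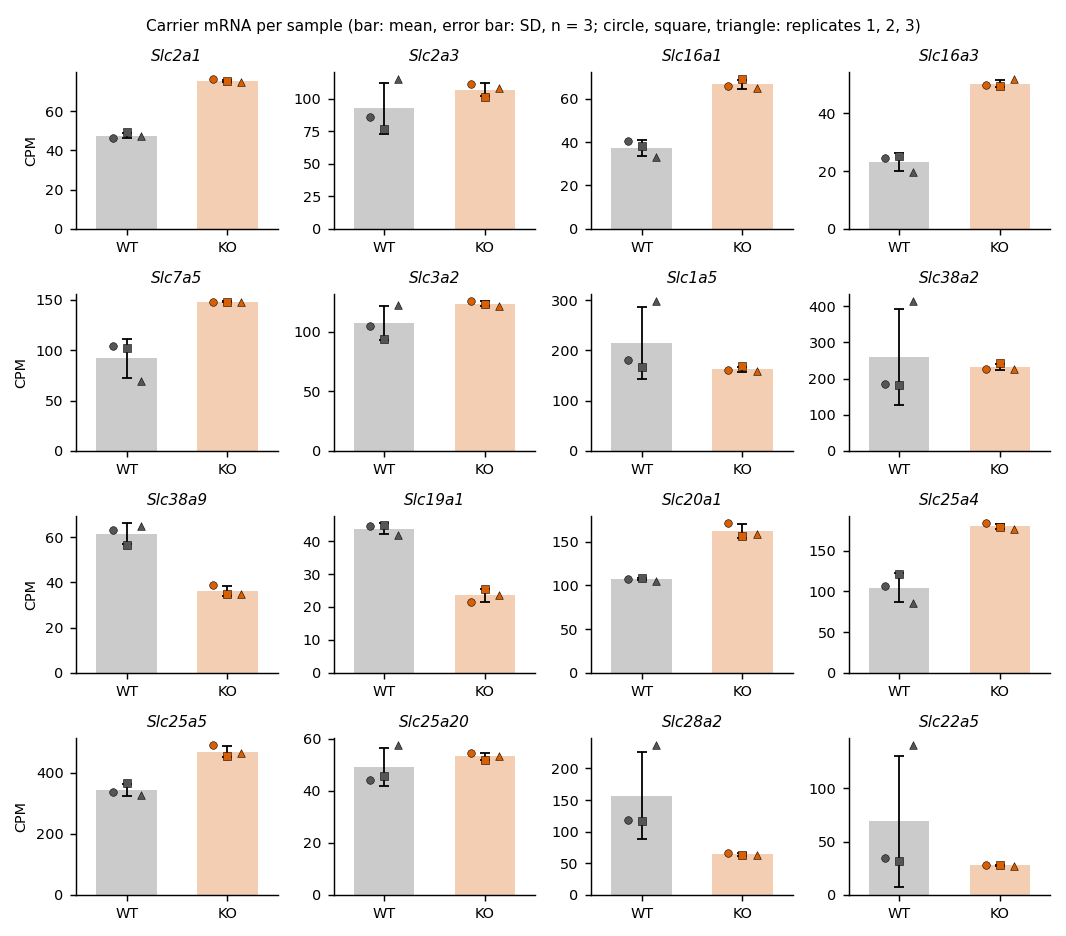
Each panel gives 1 carrier, with its level in CPM on the y axis from 0, bars for the mean of WT and KO, error bars for the SD (n = 3) and a circle, square and triangle for replicates 1, 2 and 3. Slc2a1, Slc16a1, Slc16a3, Slc20a1 and Slc25a4 lie higher and Slc38a9 and Slc19a1 lower in every KO sample, while the WT triangle (replicate 3) stands far above the other WT points for Slc38a2, Slc1a5, Slc28a2 and Slc22a5.

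Among the amino acid carriers of the plasma membrane, LAT1 was called higher with all 6 samples and its partner was not. This contrast rested on WT replicate 3. Slc7a5 (LAT1, chr8:121881146-121907686) was at 104, 102 and 69.1 CPM in WT and 148 CPM in each of the 3 KO samples (log2 0.69, SE 0.15, adjusted p = 0.00784). The call depended on WT replicate 3, the lowest sample, since without it the difference was 0.52 with adjusted p = 3.15e-06, under the 1.5-fold cutoff. Slc3a2 was at 105, 94.1 and 122 CPM in WT and 126, 124 and 122 CPM in KO (log2 0.21, adjusted p = 0.134). Its KO samples sat at the upper end of the WT range, which was set by WT replicate 3. Without that sample the Slc3a2 difference was 0.31 with adjusted p = 0.00121, so both partners were higher and both under 1.5-fold. Slc7a1, the arginine and lysine importer, was at 165, 154 and 101 CPM in WT and 189, 186 and 191 CPM in KO, without overlap but under the fold cutoff (log2 0.43, adjusted p = 0.0743). Slc7a6, a related exchanger of basic and neutral amino acids, was lower without reaching 1.5-fold, from 90.4, 82.2 and 83.0 CPM in WT to 62.7, 63.2 and 65.9 CPM in KO (log2 -0.41, adjusted p = 0.00274). Slc7a11, the cystine importer, was under 1 CPM in all 6 samples and its groups overlapped.

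The glutamine carriers gave no call, and WT replicate 3 set the WT means of Slc1a5 and Slc38a2. Slc1a5 (ASCT2) was at 181, 166 and 298 CPM in WT and 160, 168 and 158 CPM in KO (log2 -0.41, adjusted p = 0.152), and without WT replicate 3 the difference was -0.10. Slc38a2 (SNAT2) was at 184, 183 and 414 CPM in WT and 227, 242 and 226 CPM in KO. With all samples its value was -0.17 (adjusted p = 0.700), and without WT replicate 3 it turned to 0.33 (adjusted p = 0.000153), still under 1.5-fold. Slc38a1 (SNAT1) was at 232, 232 and 195 CPM in WT and 250, 245 and 241 CPM in KO, so that every KO sample was higher, by little (log2 0.16, adjusted p = 0.175).

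The amino acid carriers that fell included the lysosomal carrier Slc38a9, which passes arginine and other amino acids and serves as an arginine sensor for mTORC1. It was at 63.3, 56.5 and 65.1 CPM in WT and 38.8, 35.0 and 34.8 CPM in KO, clearly separated (log2 -0.77, SE 0.09, adjusted p = 0.000538). Slc43a1 (LAT3), a facilitative carrier of large neutral amino acids, was at 27.5, 22.9 and 23.9 CPM in WT and 13.1, 15.5 and 15.3 CPM in KO (log2 -0.76, adjusted p = 0.00206). Slc15a2, an importer of di- and tripeptides, was at 28.6, 31.1 and 90.9 CPM in WT and 22.2, 23.2 and 22.1 CPM in KO. All KO samples were below all WT samples, but the fall of 1.16 on the log2 scale was carried by WT replicate 3, and without it the value was -0.41 and not called. Without any single KO library Slc15a2 also lost its call, with adjusted p of 0.143 to 0.158. The lysosomal member Slc15a3 was called higher (log2 2.09, adjusted p = 0.000189). It was at 3.83, 4.48 and 6.22 CPM in WT and 21.02, 19.8 and 20.99 CPM in KO. Exons of Tmem132a on the opposite strand cover 28.1% of the Slc15a3 exons, and since strand was not stated for the counting its value is uncertain. Slc66a2, a relative of the lysosomal cationic amino acid exporter, was also called higher (log2 0.77, adjusted p = 0.0251). Its level was 3.69, 4.81 and 5.77 CPM in WT and 8.35, 6.87 and 9.05 CPM in KO.

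Of the inorganic ion carriers 10 fell, and those with the largest falls at 5 CPM or more exchange protons, bicarbonate, chloride and potassium. Slc9b2, a sodium/proton exchanger, was at 16.3, 15.4 and 12.3 CPM in WT and 4.79, 2.64 and 4.42 CPM in KO, a fall of 3.72-fold (log2 -1.89, SE 0.24, adjusted p = 0.000851). Slc4a8, a sodium-driven chloride/bicarbonate exchanger, was at 81.3, 67.0 and 57.8 CPM in WT and 36.7, 36.2 and 33.0 CPM in KO (log2 -0.96, adjusted p = 0.000997). Slc12a7 (KCC4), a potassium and chloride exporter, was at 173, 153 and 149 CPM in WT and 89.2, 88.6 and 80.1 CPM in KO (log2 -0.88, SE 0.08, adjusted p = 0.000231). In all 3 genes the highest KO sample lay well under the lowest WT sample. In family Slc12 as a whole 4 of 9 entries fell and none rose, beside 12.5% of all genes called lower, and its summed level was 537 ± 16.5 CPM in WT against 338 ± 5.02 CPM in KO (SD, n = 3 each). Slc12a2 (NKCC1), which imports sodium, potassium and chloride, was at 29.9, 30.5 and 31.1 CPM in WT and 28.1, 27.3 and 30.3 CPM in KO and was not called (log2 -0.09).

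The 2 ion carriers that rose were Slc20a1 and Slc9a5. Slc20a1 (PiT1, chr2:129198773-129211615), the sodium-coupled phosphate importer, was at 107, 108 and 106 CPM in WT and 171, 157 and 159 CPM in KO (log2 0.60, SE 0.06, adjusted p = 0.000396). Its groups were tight and apart, but at 1.52-fold it sat just over the fold cutoff, and without KO replicate 1 or with library totals alone it fell under it at 0.56. Slc9a5, a sodium/proton exchanger, was at 15.1, 13.97 and 8.62 CPM in WT and 20.5, 21.2 and 19.8 CPM in KO (log2 0.70, adjusted p = 0.0257), and it lost its call at 0.49 when WT replicate 3 was left out.

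The 5 metal ion carriers called higher were 3 zinc importers of family Slc39, the copper importer Slc31a1 and a carrier of the magnesium family Slc41 under 5 CPM in every sample. The ZIP proteins of family Slc39 move zinc into the cytosol and those of family Slc30 move it out or into vesicles. Slc39a8 (ZIP8) was at 4.46, 6.88 and 10.2 CPM in WT and 15.4, 17.9 and 16.5 CPM in KO (log2 1.21, SE 0.27, adjusted p = 0.00982). Slc39a6 (ZIP6) was at 23.6, 21.4 and 29.8 CPM in WT and 50.4, 42.8 and 44.8 CPM in KO (log2 0.88, SE 0.14, adjusted p = 0.00184). For both, the lowest KO sample was well above the highest WT sample. Slc31a1 (CTR1), the copper importer, was at 17.1, 17.8 and 13.999 CPM in WT and 28.7, 26.1 and 27.4 CPM in KO (log2 0.75, adjusted p = 0.00193). In family Slc39 3 of 12 members rose and 1 fell, and in family Slc30 1 of 7 fell and none rose, which is 33.3% and 14.3% called beside 24.4% of all genes. The member that fell in family Slc39, Slc39a13 (ZIP13), was at 27.7, 24.5 and 23.9 CPM in WT and 13.2, 12.2 and 12.8 CPM in KO (log2 -0.998, adjusted p = 0.00037). Slc41a3, of a family of magnesium carriers, fell from 8.72, 13.2 and 19.9 CPM in WT to 4.19, 4.46 and 4.45 CPM in KO (log2 -1.67, adjusted p = 0.00299). Slc11a2 (DMT1), an iron importer, was at 38.8, 32.6 and 45.2 CPM in WT and 34.5, 35.3 and 35.5 CPM in KO and was not called (log2 -0.15), and Slc39a7, a zinc carrier of the endoplasmic reticulum, was nearly level at 0.07, with 80.7% of its exons shared with Gm20427.

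Of the mitochondrial carriers 4 rose and 5 fell, and the ADP/ATP exchangers were higher in every KO sample. By level per length (CPM per kilobase of exon), Slc25a5 (ANT2) was the highest of all Slc genes in both genotypes, at 209 in WT and 286 in KO. It was at 337, 367 and 329 CPM in WT and 491, 456 and 464 CPM in KO (log2 0.45, SE 0.07, adjusted p = 0.00212), higher in every KO sample but under 1.5-fold. Slc25a4 (ANT1) was at 107, 121 and 85.8 CPM in WT and 184, 179 and 177 CPM in KO, and it was called higher (log2 0.78, SE 0.12, adjusted p = 0.00184). Both genes have processed pseudogenes that can share reads with them. Slc25a3, the phosphate carrier that supplies ATP synthase, was at 395, 423 and 511 CPM in WT and 417, 406 and 413 CPM in KO, within the WT range (log2 -0.10, adjusted p = 0.447).

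The other Slc25 members called higher pass nucleotides and metabolites. Slc25a24, an ATP-Mg/phosphate carrier, was at 29.4, 27.9 and 28.2 CPM in WT and 47.9, 60.5 and 57.5 CPM in KO (log2 0.96, SE 0.10, adjusted p = 0.000406). Slc25a10, the dicarboxylate carrier, was at 7.25, 9.99 and 6.73 CPM in WT and 16.7, 15.0 and 15.1 CPM in KO (log2 0.97, SE 0.17, adjusted p = 0.00352). Neither overlapped between genotypes. Of the aspartate/glutamate exchangers of the malate-aspartate shuttle, Slc25a13, chosen after its values were seen, was called higher at 11.1, 11.9 and 5.50 CPM in WT against 15.6, 15.3 and 16.1 CPM in KO (log2 0.72, adjusted p = 0.0627), and without WT replicate 3 it lost its call at 0.45. Slc25a12 was not called, at 78.3, 77.1 and 63.0 CPM in WT and 80.5, 84.9 and 89.2 CPM in KO (log2 0.22, adjusted p = 0.113). The exchange partner in that shuttle, the oxoglutarate carrier Slc25a11, was at 67.1, 76.0 and 57.2 CPM in WT and 70.9, 73.7 and 73.4 CPM in KO (log2 0.12). The citrate carrier Slc25a1, the carnitine/acylcarnitine carrier Slc25a20, the folate carrier Slc25a32 and the glutathione carrier Slc25a39 were not called and had log2 values of -0.12, 0.12, -0.19 and 0.04.

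The Slc25 genes that fell most included a coenzyme A carrier. Slc25a42 was at 23.7, 21.2 and 15.4 CPM in WT and 5.80, 4.48 and 6.81 CPM in KO, a fall of 3.53-fold (log2 -1.82, SE 0.22, adjusted p = 0.000614). Slc25a27, an uncoupling protein relative, was at 10.9, 10.5 and 13.4 CPM in WT and 5.67, 3.29 and 4.23 CPM in KO (log2 -1.40, adjusted p = 0.00224). Slc25a53, a member with no assigned substrate, was at 13.9, 17.6 and 14.4 CPM in WT and 7.88, 9.83 and 9.50 CPM in KO (log2 -0.75, adjusted p = 0.00598). In all 3 the groups were apart. Summed over the 39 members, Slc25 mRNA was 2149 ± 43.5 CPM in WT against 2243 ± 17.1 CPM in KO (SD, n = 3 each).

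**Figure D4:**
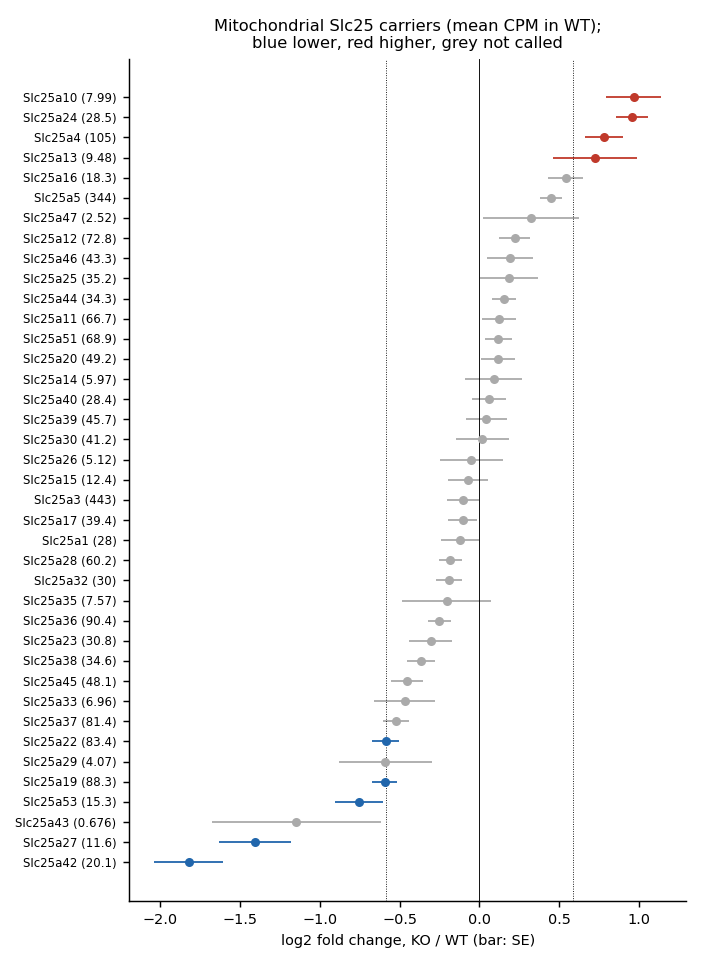
Points give the log2 fold change of KO over WT (x axis) of the 39 Slc25 genes, ordered by value, with bars for the SE, the mean WT level in CPM in brackets, colors for calls (red higher, blue lower, grey not called) and dotted lines at 1.5-fold. The 4 higher calls lie between 0.72 and 0.97, the 5 lower calls between -1.82 and -0.59, and most of the other genes lie close to 0.

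Of the 7 nucleoside carriers 4 fell and 1 rose. Slc28a2 (CNT2), a sodium-coupled purine nucleoside importer, was at 118, 116 and 237 CPM in WT and 65.6, 63.6 and 62.2 CPM in KO (log2 -1.30, SE 0.26, adjusted p = 0.00629), and without WT replicate 3 the fall remained called at -0.88. Its near-identical neighbor Slc28a2b showed the same pattern, at 23.3, 19.9 and 75.9 CPM in WT and 7.83, 6.65 and 8.25 CPM in KO (log2 -2.39, and -1.52 without WT replicate 3), and reads of the pair may have been exchanged between them. Slc29a4 (PMAT) fell from 6.36, 6.39 and 2.82 CPM in WT to 1.34, 2.54 and 2.04 CPM in KO (log2 -1.39). The main equilibrative nucleoside carrier Slc29a1 (ENT1) was not called, at 84.9, 81.0 and 63.4 CPM in WT and 73.5, 69.6 and 70.4 CPM in KO (log2 -0.10). Slc43a3, a purine nucleobase carrier, was the single member of the group that rose, from 39.5, 39.5 and 17.6 CPM in WT to 63.2, 65.8 and 63.5 CPM in KO (log2 0.99, adjusted p = 0.0222). WT replicate 3 was its lowest sample, and without it the value was 0.70 and still called.

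Slc19a1, the reduced folate carrier (chr10:77032269-77050432), was at 44.7, 44.8 and 41.9 CPM in WT and 21.4, 25.4 and 23.7 CPM in KO, 53.7% of WT (log2 -0.90, SE 0.09, adjusted p = 0.000346). The fatty acid carrier Slc27a1 was at 18.04, 20.2 and 17.4 CPM in WT and 9.83, 11.3 and 8.99 CPM in KO (log2 -0.88, adjusted p = 0.00153). The lysosomal carrier Slc49a4 was at 10.8, 11.8 and 23.0 CPM in WT and 6.16, 6.40 and 7.66 CPM in KO (log2 -1.17, adjusted p = 0.0156, and -0.75 without WT replicate 3). These 3 genes did not overlap between genotypes. Slc44a2, a choline carrier with the fourth highest level per length in WT, was lower without reaching the fold cutoff, at 446, 427 and 519 CPM in WT and 361, 362 and 363 CPM in KO (log2 -0.36, adjusted p = 0.0125). The riboflavin carrier Slc52a3 was the single higher call, at 5.03, 6.64 and 5.80 CPM in WT and 9.28, 7.92 and 11.0 CPM in KO (log2 0.69, adjusted p = 0.0211), and without KO replicate 3 it lost its call at 0.56.

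Among carriers of organic ions, Slc17a9 (VNUT), which loads ATP into vesicles, was at 80.8, 64.9 and 120 CPM in WT and 26.2, 25.7 and 26.0 CPM in KO, a fall of 3.41-fold (log2 -1.77, SE 0.21, adjusted p = 0.000565). Slc22a17, a receptor for lipocalin 2, was at 9.78, 11.5 and 7.36 CPM in WT and 3.67, 3.01 and 3.06 CPM in KO (log2 -1.56, adjusted p = 0.00118). Slc22a5 (OCTN2), the carnitine importer, was at 34.2, 31.97 and 140 CPM in WT and 27.7, 27.8 and 27.0 CPM in KO. Its value was -1.32 with all samples (adjusted p = 0.0879) and -0.27, not called, without WT replicate 3, and it also lost its call without each single KO library, with adjusted p of 0.193 to 0.199. Chosen after its values were seen, the vesicular glutamate carrier Slc17a6 had no counts in the 3 WT samples and was at 0.684, 1.62 and 1.19 CPM in KO, at least 12.7-fold higher when WT is set to 3 counts per library. Of the nucleotide sugar carriers of family Slc35, which supply the Golgi, Slc35e1 rose (76.1, 58.2 and 74.4 CPM in WT against 113, 116 and 122 CPM in KO, log2 0.75) and Slc35b3 (log2 -0.61) and Slc35a5 (log2 -0.72) fell. Symbols that start with Slc but encode no carrier included Slc9a3r1 (NHERF1), a scaffold protein with the second highest level per length in WT, which was not called (log2 -0.14), and the transcribed pseudogene Slc2a4rg-ps, which fell (log2 -1.01).

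WT replicate 3 differed from the other WT samples in carriers of several groups. Of the 168 Slc genes with at least 5 CPM in a genotype, 10 were over 1.5-fold above both other WT samples in it and 10 were over 1.5-fold below both, 5.95% each, beside 5.66% and 5.27% of all genes at that level. WT replicates 1 and 2 stood apart in the same way in 3 and 1 of these Slc genes. With WT replicate 3 left out, 26 Slc genes rose and 53 fell, 79 in all or 33.5%, beside 26.8% of all genes, and 70 of the 81 calls were kept in the same direction. The 11 calls lost included Slc7a5, Slc15a2, Slc22a5, Slc9a5 and Slc2a8. The 9 gained included Slc30a4, a zinc exporter, chosen after its values were seen, at 5.81, 6.36 and 18.4 CPM in WT and 15.5, 17.5 and 14.8 CPM in KO, where the value moved from 0.64 to 1.38.

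**Figure D5:**
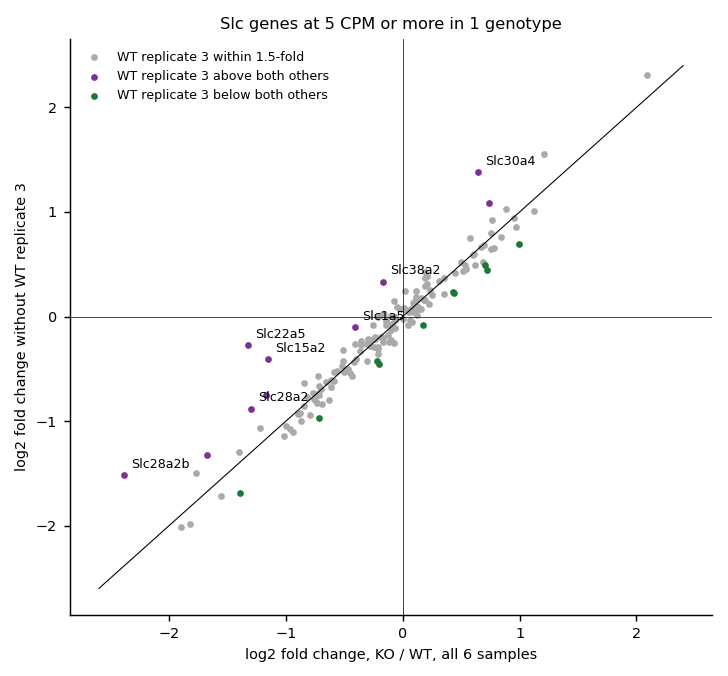
Each point is 1 of the 168 Slc genes that averaged 5 CPM or more in a genotype, with its log2 fold change from all 6 samples (x axis) against that without WT replicate 3 (y axis), and the diagonal marks equal values. Purple points, the 10 genes in which WT replicate 3 was over 1.5-fold above both other WT samples, lie above the diagonal, and green points, the 10 in which it was below, lie under it, while most grey points lie close to the line.

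A list of 26 carriers known from T cell nutrition, written with earlier results of these data known, was in the table in full. In KO 7 of them rose (Slc7a5, Slc20a1, Slc16a1, Slc16a3, Slc2a1, Slc25a4 and Slc43a3), 2 fell (Slc38a9 and Slc19a1) and 17 were not called. That is 34.6% called, beside 24.4% of all genes, with a median of 0.14 beside -0.04 for all genes. Summed over the list, the level was 2322 to 2494 CPM in WT and 2754 to 2800 CPM in KO. A second list held 25 carriers under other names and helper proteins, of which 22 were in the table, and 4 of them rose, 2 fell and 16 were not called (median -0.01). That is 27.3% called, near the 24.4% of all genes. The organic anion carriers Slco4a1 (2.25, 2.62 and 2.04 CPM in WT against 15.8, 15.2 and 12.8 CPM in KO, log2 2.66) and Slco3a1 (20.6, 14.9 and 24.2 CPM in WT against 53.8, 52.1 and 56.4 CPM in KO, log2 1.44) rose, as did Emb and the mitochondrial Mtch1 (log2 0.63). The mitochondrial sideroflexins Sfxn3 (86.3, 80.8 and 115 CPM in WT against 44.8, 44.7 and 44.96 CPM in KO, log2 -1.07) and Sfxn2 (7.50, 6.52 and 17.8 CPM in WT against 4.41, 5.08 and 6.21 CPM in KO, log2 -1.02, adjusted p = 0.0692) fell. Without WT replicate 3, Sfxn2 and Mtch1 lost their calls at -0.43 and 0.52. The mitochondrial pyruvate carrier subunits Mpc1 and Mpc2 had log2 values of -0.14 and -0.12 and were not called, and Txnip, which restrains glucose uptake, was not called at -0.14 (adjusted p = 0.450).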

How the data were processed

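RNA-Seq counts of 3 WT and 3 KO Treg samples were analyzed. The study's methods name SOAPnuke for read filtering, HISAT2 for alignment to mm10 with a single alignment kept per read, and StringTie for quantification. The authors deposited whole-number counts per gene without normalization. How these were derived, the annotation and the use of strand were not stated. The table held 13709 entries with a smallest sum of 60, so low genes had been removed. It listed 62.1% of the protein-coding Slc symbols of RefSeq.

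Counts were tested with edgeR 4.0.16 (R 4.3.3) after filterByExpr at a minimum count of 10 and TMM scaling, by the two-sided quasi-likelihood F-test of KO against WT with no covariate. Adjusted p-values are Benjamini-Hochberg values over 13594 genes. The SE is the log2 fold change divided by the square root of F. DESeq2 1.42.0, the study's test, was an alternative. Exon lengths and overlaps came from GENCODE M21, and gene spans and start windows from RefSeq. The procedure was tested on simulated counts. Floors cover counting error only.

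Substrate groups followed the family numbers. Genes named were the 26 T cell nutrient carriers, in each group up to 3 called higher and 3 called lower with at least 5 CPM in a genotype and no overlap, the 10 highest per length in WT, called members of the list of other carriers, and Zfp335. The members, lists and tests were chosen with earlier results of these data known. Replicate numbers did not pair the samples. Some members are counted but not reported by name here.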

Additional observations from a re-analysis of the deposited data

How the results depend on the processing

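The count of Slc genes called stayed within 1.5 times of 81 with DESeq2 (80), RLE scaling (78), library totals alone (78), no low-count filter (80), at least 10 counts in every sample (74 of 203 tested), GC and length offsets (73), adjusted p alone under 0.05 (92) and without 1 library (64 to 79). In these settings except adjusted p alone, 27.1% to 36.5% of the Slc genes and 21% to 26.8% of all genes were called, and with adjusted p alone 39% and 38.6%. With glmTreat, which tests against 1.5-fold itself, 32 were called (13.6%, beside 12.4% of all genes), of which 4 were amino acid, 2 sugar, 4 inorganic ion, 5 metal ion and 4 mitochondrial carriers. Adjusted p alone under 0.05 called 14 of the 39 mitochondrial carriers, beside 38.6% of all genes. Sugar carriers called without 1 library numbered 3 to 6, with 3 without WT replicate 2 and 3 without KO replicate 2. Same-numbered WT and KO samples correlated at 0.038, 0.040 and -0.012 in their deviations from the group means, so the numbers were not taken as a pairing. With the replicate block 77 Slc genes were called, 28 higher and 49 lower, and 76 were shared with the 81, with the call of Slc22a5 lost at -0.94.

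The sign of 5 uncalled genes turned. Slc25a1 went from -0.12 to 0.0224 with GC and length offsets. Without 1 library, Slc38a2 ranged from -0.37 to 0.33, Slc7a11 from -0.27 to 0.42, Slc25a3 from -0.18 to 0.0064 and Slc25a39 from -0.0772 to 0.16. Slc7a11 was at -0.18 without KO replicate 2. The median of the sugar carriers went from -0.08 to 0.07 with GC and length offsets, and that of the organic acid carriers from 0.17 to -0.08 without WT replicate 3. The causes were not tested. With 3 samples per genotype and genes under 5 CPM, small differences were not detectable.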

Other observations

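Several Slc genes outside the rule for naming, chosen after their values were seen, differed widely at low levels. Slc41a2, of the magnesium carrier family, was at 0.244, 0 and 0.0601 CPM in WT and 3.72, 3.96 and 4.23 CPM in KO (log2 5.19, SE 0.73, adjusted p = 0.00126, edgeR). Slc7a8 (LAT2), a neutral amino acid exchanger that pairs with Slc3a2, was at 1.09, 0.335 and 0.451 CPM in WT and 5.36, 4.68 and 3.74 CPM in KO (log2 2.86, adjusted p = 0.0022). Slc7a10, a small neutral amino acid exchanger, was at 2.77, 2.98 and 1.68 CPM in WT and 0.438, 0.498 and 0.142 CPM in KO (log2 -2.77, adjusted p = 0.00456), with 17.9% of its exons shared with Lrp3 on the opposite strand. In each of the 3 the genotypes did not overlap. More abundant genes of the same kind included the taurine importer Slc6a6, at 190, 176 and 196 CPM in WT and 119, 120 and 117 CPM in KO (log2 -0.65, adjusted p = 0.000318). Slc43a2 (LAT4), the relative of Slc43a1, was at 110, 110 and 122 CPM in WT and 68.0, 68.4 and 72.6 CPM in KO (log2 -0.71, adjusted p = 0.000312). The sulfate importer Slc26a2 was at 104, 104 and 84.2 CPM in WT and 61.3, 56.5 and 57.7 CPM in KO (log2 -0.73, adjusted p = 0.000976). The urea carrier Slc14a1 was at 68.9, 70.4 and 103 CPM in WT and 45.2, 46.9 and 43.0 CPM in KO (log2 -0.84, adjusted p = 0.00416). The mitoferrin Slc25a37, an iron importer of mitochondria, was lower without reaching 1.5-fold, at 81.2, 75.8 and 87.1 CPM in WT and 58.6, 58.8 and 52.7 CPM in KO (log2 -0.52, adjusted p = 0.00211).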
